A study of Bos taurus with 44 samples.

Results

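The genes PAG2, PAG9, PRP1 and IFNT2, made by the bovine conceptus, were followed across endometrial RNA of cattle. They were taken as the probes annotated with exactly these symbols, 4 of the 8645 probes with 1 symbol among 13824 in all, and each gene has 1 probe printed as 2 adjacent spots, which were averaged. The conceptus is the embryo with its extraembryonic membranes. Its outer layer, the trophoblast, secretes interferon tau (here IFNT2), the signal by which ruminant pregnancy is recognised and which switches on interferon-stimulated genes in the uterus. The trophoblast also makes pregnancy-associated glycoproteins (PAGs), inactive or weakly active relatives of aspartic proteases. PAG2 belongs to the older branch of that family, made throughout the trophoblast, and PAG9 to the younger branch, made mainly in the binucleate cells that also make prolactin-related proteins such as PRP1. These transcripts are known mainly as products of the trophoblast, so they may mark RNA of the conceptus in a uterine sample. That source was not tested on these arrays.

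On each of 44 arrays an RNA sample coupled to Cy3 was set against another coupled to Cy5. The tissue was caruncular (the knobs of the uterine lining to which the placenta attaches) or intercaruncular (the lining between them). Groups were pregnancies after in vitro fertilisation and embryo transfer (IVF-ET), after somatic cell nuclear transfer (SCNT, that is cloning) and after artificial insemination (AI), and CJ animals, which the labels describe only by the word cycle. AI animals carry the name IAT in the IVF-ET arrays and IAJ in the SCNT arrays, and no animal has both names. IVF-ET was set against AI on 10 arrays per area, in a closed loop of 5 animals per group. The same 5 IVF-ET animals are in both loops, and of 7 IAT animals 3 (numbers 2, 4 and 7) are in both. SCNT was set against AI in caruncular tissue on 4 arrays of 2 pools per group, with dyes swapped. In intercaruncular tissue 10 arrays set 5 SCNT animals against 5 CJ animals, and 10 set 4 IAJ animals against the same CJ animals. IAJ animal 3 is on 4 of the arrays of AI against CJ, and its interferon-stimulated genes lay at the level of CJ animals (median log2 ratio -0.09 over 33 genes), against its label as AI. The called results of AI minus CJ, and those of the conceptus genes with CJ, are therefore also given without it. The stage of pregnancy, breed and age, and how many animals a pool holds, are not given by the labels. Fits treat animals as replicates, so p-values measure the spread between these animals, and in the pools that between 2 pairs.

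All values are log2 ratios of 2 samples of 1 array, so 1 unit is a doubling, and no absolute level can be read from them. Neither the labelled tissue nor the presence of a cell type could therefore be checked against markers, only differences between samples. In tissue RNA, fewer cells of a type and less RNA per cell cannot be told apart. Which dye stands on top of the ratio is not stated. Likely it is Cy5, since ISG15 and MX1, antiviral genes that pregnancy raises in the ruminant uterus, are then higher in SCNT and AI than in CJ animals. With Cy3 on top every sign given here would turn. Array medians lay between -0.0164 and 0.0124, and the SD of the ratios of an array was 0.221 to 0.62.

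Across arrays the 2 spots of a gene correlated with r of 0.978 for PAG2 (41 arrays), 0.966 for IFNT2, 0.931 for PAG9 and 0.964 for PRP1 (44 arrays each). The median difference between the spots was 0.15, 0.17, 0.17 and 0.12 in the same order. On single arrays they differed by up to 0.88, 0.73, 1.10 and 1.18. PAG2 had no value on 3 intercaruncular arrays, both of IVF-ET animal 2 and 1 of IVF-ET animal 5. All 4 genes lie among relatives. In the gene table of the ARS-UCD2.0 assembly PAG2 stands between PAG10 and PAG12, PAG9 between LOC520130 and PAG3, IFNT2 between IFNT3 and IFN-tau-c1, and PRP1 between PRP6 and LOC100298767. That table lists 19 PAG genes on 1 chromosome, 12 of them with a probe here, and 9 PRP genes on another, 3 of them with a probe. A probe may bind transcripts of a near-identical neighbour, so each value may belong to the gene or to its closest relatives.

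The conceptus genes were high in some animals of a group and not in others. High values of PAG2 and IFNT2 came together in the same animals. Those of PAG9 and PRP1 came together in the IVF-ET loops and the pools, but not in the SCNT animals set against CJ. Against CJ, SCNT animal 4 was high in PAG2, IFNT2 and PAG9, whereas the 4 AI animals stayed near the CJ level in all 4 genes. In caruncular tissue 4 of 5 IVF-ET animals were high in PAG9 and PRP1, and IVF-ET animal 5 was not.

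**Figure D1:**
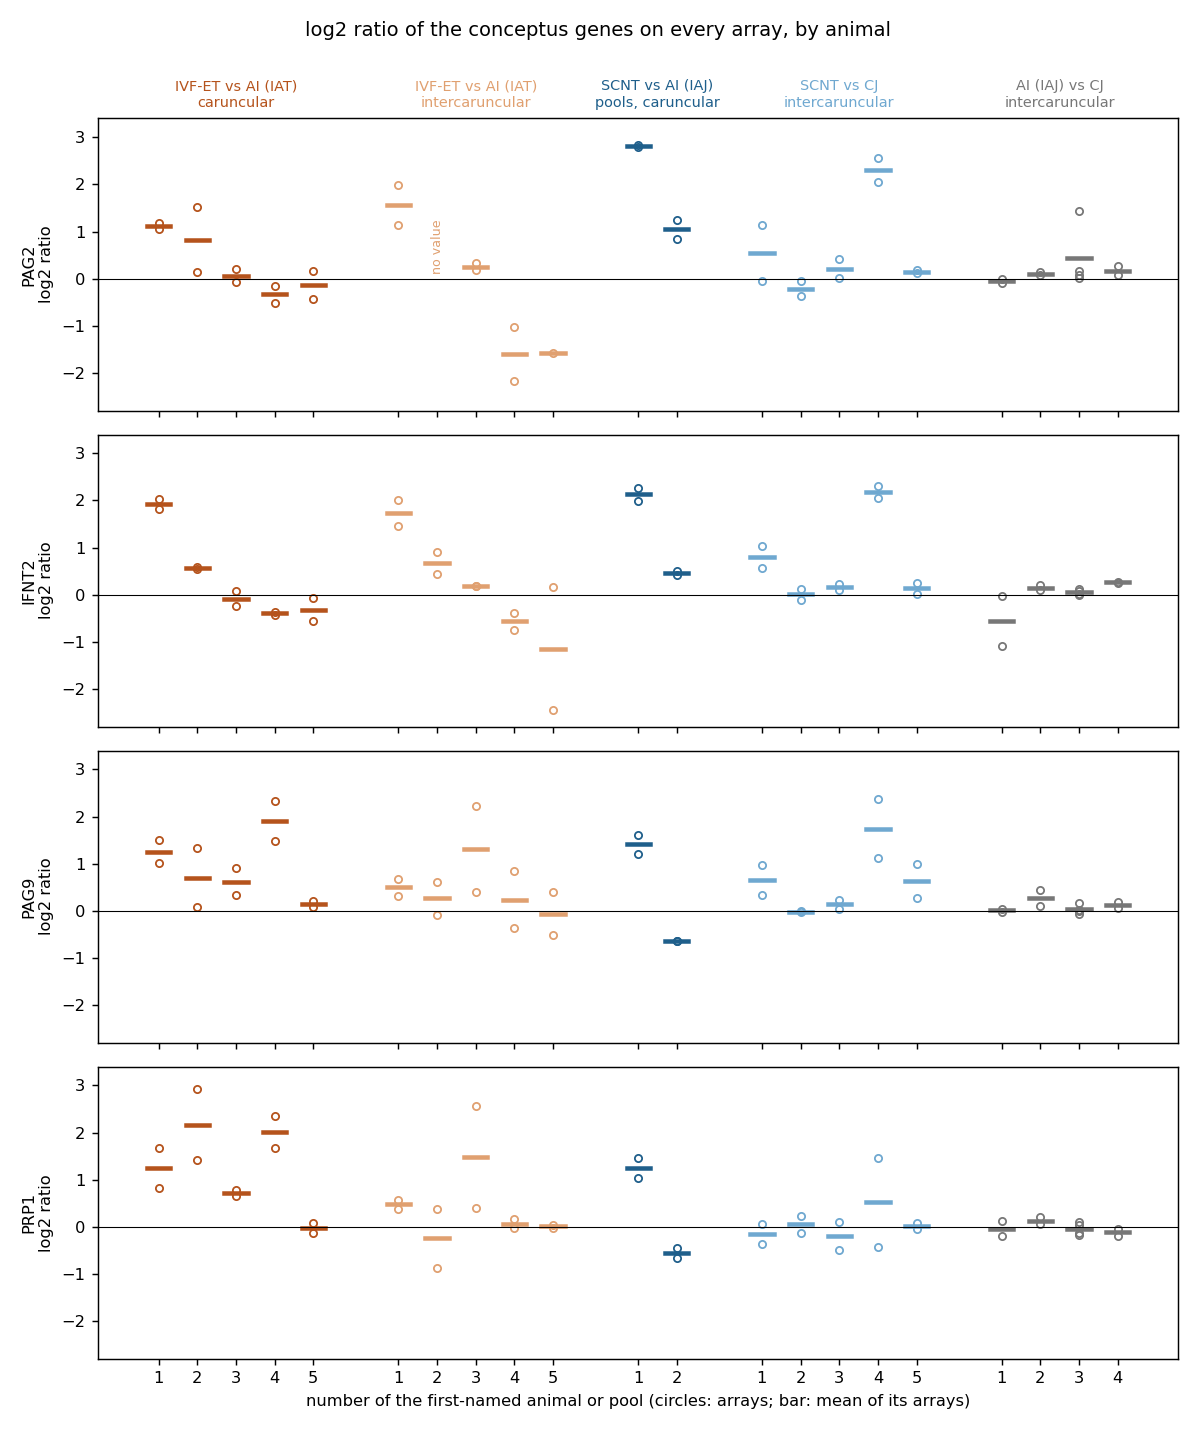
Log2 ratio of PAG2, IFNT2, PAG9 and PRP1 (y axis, 1 panel per gene) on every array, by the animal or pool named first in each comparison (x axis); circles are arrays and bars the mean of an animal's arrays. SCNT pool 1, SCNT animal 4 and IVF-ET animal 1 lie highest for PAG2 and IFNT2, and the AI animals set against CJ lie near 0.

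Interferon tau in the IVF-ET loops was high in 1 animal. In caruncular tissue the mean log2 ratio of IFNT2 against IAT animals was 1.92 in IVF-ET animal 1, 0.56 in animal 2, -0.08 in animal 3, -0.40 in animal 4 and -0.32 in animal 5. In intercaruncular tissue it was 1.74, 0.67, 0.18, -0.57 and -1.14 in animals 1 to 5. IVF-ET animal 1 thus had the highest ratio in both areas, on all 4 of its arrays, and animals 4 and 5 had ratios below 0 in both. Between the caruncles the ratio also depends on the IAT animals met, whose levels solved from the loop lay at -1.41 to 0.80. Animal 4 met IAT animals 2 and 4, both high at 0.78 and 0.80, and its own level was 0.22. Animal 5 gave -2.44 against IAT animal 4 and 0.16 against the low IAT animal 3, and its own level was -1.45, the lowest of the IVF-ET animals. The IVF-ET minus AI difference of IFNT2 was 0.34 ± 0.27 in caruncular tissue (SE, adjusted p = 0.725, limma, 5 of 10 arrays higher) and 0.18 ± 0.32 in intercaruncular tissue (adjusted p = 0.911, limma, 7 of 10 arrays higher). Without IVF-ET animal 1 the difference was -0.05 in caruncular and -0.21 in intercaruncular tissue.

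PAG2 followed the same animals. In caruncular tissue its mean ratio was 1.11, 0.83, 0.06, -0.33 and -0.13 in IVF-ET animals 1 to 5, and the difference was 0.31 ± 0.18 (SE, adjusted p = 0.641, limma, 6 of 10 arrays higher). In intercaruncular tissue it was 1.56 in animal 1, 0.25 in animal 3 and -1.60 in animal 4, and the only array with a value for animal 5 gave -1.59. Animal 1 was again high, and animals 4 and 5 lay below the IAT animals they met. With 7 of 10 arrays PAG2 was under the 80% of arrays asked for in a fit. At 70%, an alternative added after the data were seen, the difference was -0.12 ± 0.44 (SE, adjusted p = 0.957, limma).

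PAG9 and PRP1 showed another set of animals. The caruncular mean ratio of PAG9 was 1.26, 0.70, 0.62, 1.91 and 0.14 in IVF-ET animals 1 to 5, above 0 on 10 of 10 arrays. That of PRP1 was 1.25, 2.17, 0.72, 2.01 and -0.03, above 0 on 9 of 10 arrays. IVF-ET animal 4, low in IFNT2 and PAG2, was among the highest in both, and animal 5 was at the level of the AI animals. The difference of PAG9 was 0.93 ± 0.22 (SE, 1.90-fold, adjusted p = 0.334, limma) and that of PRP1 1.22 ± 0.30 (SE, 2.33-fold, adjusted p = 0.361, limma). Neither passed the threshold of 0.05 over 13824 probes, where they stood at ranks 50 and 65 by p-value. Of the 4 genes 0 were called, and 0.0217% of all probes were. At an unadjusted p under 0.05 there were 2 of the 4, against 9.11% of all probes.

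Levels of single animals, solved from each loop relative to the mean of its IAT animals, put the groups side by side. This solution uses as many terms as arrays, was chosen after the data were seen and gives no test. For PAG9 the 5 IVF-ET animals lay at 0.16 to 1.88 (median 0.89) and the 5 IAT animals at -0.57 to 0.34 (median 0.19). For PRP1 they lay at -0.78 to 1.97 (median 1.78), against -0.98 to 0.82 (median 0.24) in IAT animals. In both genes IVF-ET animals 1 to 4 lay above every IAT animal, and animal 5 lay within the IAT range, so the groups overlapped by 1 animal. For IFNT2 and PAG2 the ranges overlapped more widely, at -0.30 to 1.78 and -0.10 to 0.75 in IVF-ET animals, against -0.25 to 0.28 and -0.57 to 0.32 in IAT animals.

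Between the caruncles PAG9 and PRP1 were high in fewer animals. The mean ratio of PAG9 was 0.50, 0.26, 1.31, 0.23 and -0.06 in IVF-ET animals 1 to 5, and that of PRP1 was 0.48, -0.24, 1.49, 0.07 and 0.01. Animal 3 led both genes, through its array against IAT animal 2 (2.22 for PAG9 and 2.57 for PRP1). Against IAT animal 7 the same animal gave 0.39 and 0.40. The solved levels put IAT animal 7 at 0.96 for PAG9 and 1.08 for PRP1, and IAT animal 1 at 0.61 and 1.01, whereas IAT animals 2, 3 and 4 lay between -0.82 and -0.14 in both. The IAT animals thus spanned 1.77 for PAG9 and 1.90 for PRP1, and the IVF-ET animals ran from -0.77 to 1.72 and from -0.71 to 1.62. The groups overlapped in both genes, with the lowest IAT animal below and the highest IVF-ET animal above the range of the other group. The difference was 0.45 ± 0.18 for PAG9 (SE, adjusted p = 0.502, limma) and 0.36 ± 0.23 for PRP1 (SE, adjusted p = 0.663, limma). Of the 3 genes tested 0 were called, against 0.00724% of all probes, and 1 had an unadjusted p under 0.05, against 9.3% of all probes.

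**Figure D2:**
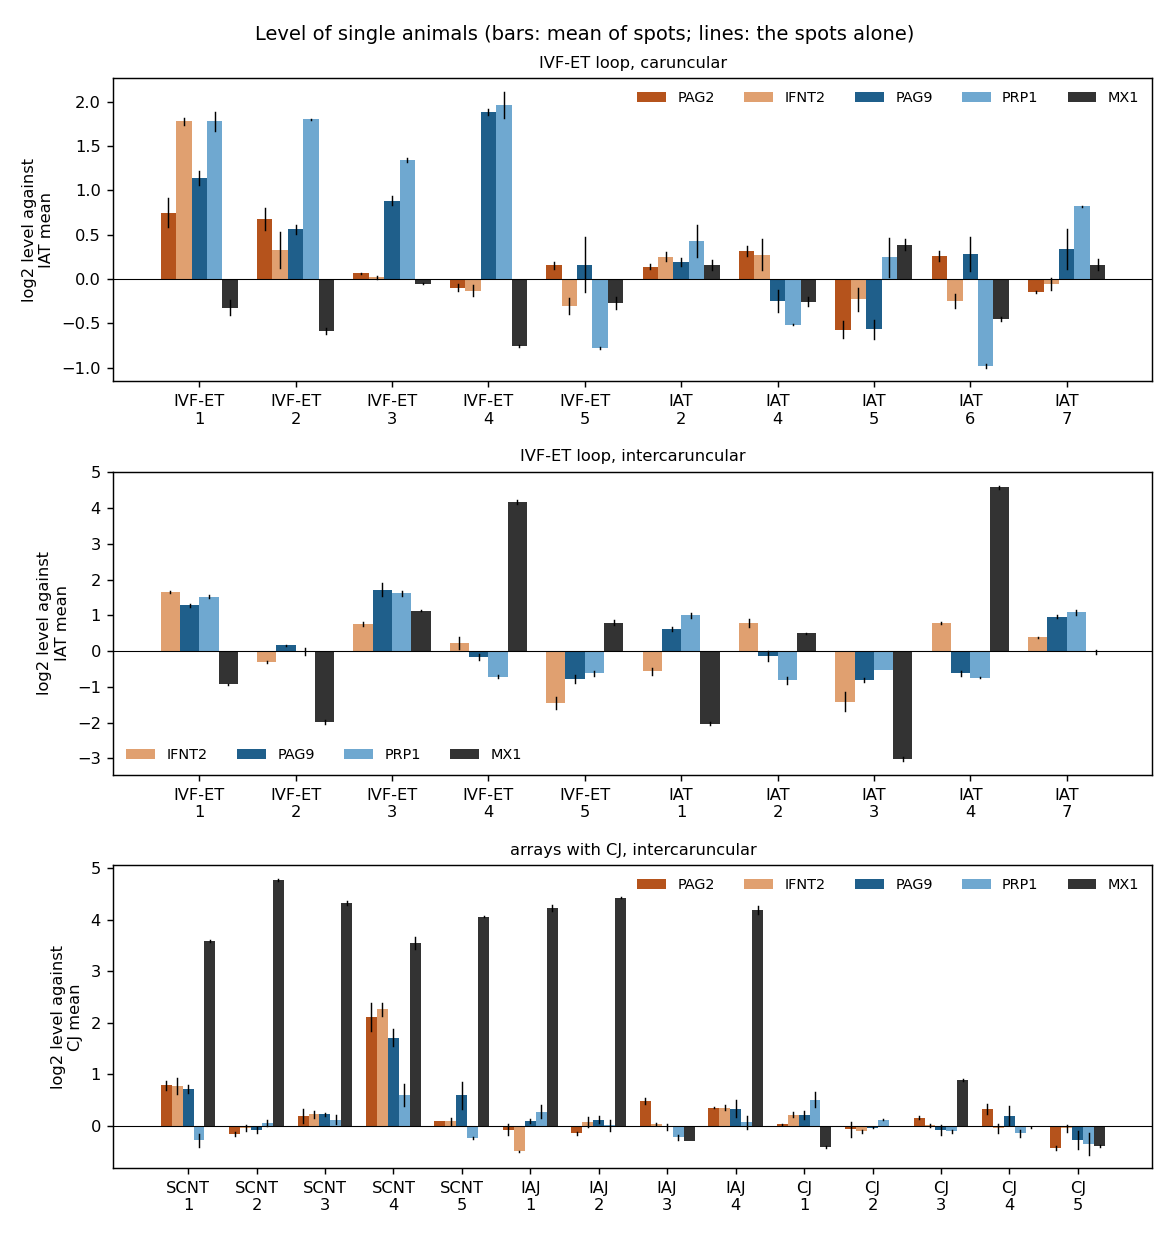
Solved log2 level of each animal (y axis) relative to the mean of IAT animals (upper panels) or CJ animals (lowest panel) for the conceptus genes and MX1, an interferon-stimulated gene; bars are the mean of 2 spots and lines join the spots alone. IVF-ET animals 1 to 4 lie above all IAT animals for PAG9 and PRP1 in caruncular tissue, and MX1 is high in all SCNT animals and in IAJ animals 1, 2 and 4.

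The IVF-ET effect was larger in caruncular than in intercaruncular tissue for each gene, but no difference between the areas passed the test. Caruncular minus intercaruncular, it differed by 0.86 ± 0.39 for PRP1 (SE, adjusted p = 0.634, limma), 0.48 ± 0.30 for PAG9 (adjusted p = 0.713, limma), 0.43 ± 0.49 for PAG2 (adjusted p = 0.853, limma) and 0.16 ± 0.45 for IFNT2 (adjusted p = 0.951, limma). Of the 4 genes 0 were called, with 0.00723% of all probes called, and 1 (PRP1) had an unadjusted p under 0.05, against 7.74% of all probes. With 95% intervals of -0.59 to 1.45 for PAG2 and -0.78 to 1.11 for IFNT2, differences between the areas of more than 1 unit in either gene lie within what these arrays allow. PAG2 enters this fit with 17 of 20 arrays.

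The cloned pregnancies were first set against AI in pooled caruncular RNA. Both PAG2 and IFNT2 were higher in SCNT pools on 4 of 4 arrays. PAG2 gave 2.84 and 2.79 on the dye-swapped arrays of SCNT pool 1 against IAJ pool 2, and 1.25 and 0.84 on those of SCNT pool 2 against IAJ pool 1. IFNT2 gave 1.999 and 2.26 in the first pair and 0.51 and 0.42 in the second. In both genes the first pair was far above the second, by more than the dye-swapped arrays of a pair differed. The mean over pairs was 1.93 ± 0.39 for PAG2 (SE, 3.81-fold, adjusted p = 0.19, limma, n = 2 pairs) and 1.30 ± 0.37 for IFNT2 (SE, 2.46-fold, adjusted p = 0.285, limma, n = 2 pairs). The SEs of the pools are moderated, with a variance drawn toward that of all probes, and are not the spread between the 2 pairs. The pair means themselves were 2.82 and 1.04 for PAG2 and 2.13 and 0.46 for IFNT2.

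In the other 2 genes the pool pairs went opposite ways. PAG9 gave 1.204 and 1.61 in the first pair, against -0.65 and -0.64 in the second. PRP1 gave 1.46 and 1.04 in the first pair, against -0.67 and -0.44 in the second. The means, 0.38 ± 0.45 for PAG9 (SE, adjusted p = 0.801, limma) and 0.35 ± 0.40 for PRP1 (SE, adjusted p = 0.794, limma), therefore describe neither pair. Of the 4 genes 0 were called and 0% of all probes were. At an unadjusted p under 0.05 there were 2 genes (PAG2 and IFNT2), against 12.6% of all probes. From the first spot alone PAG2 had a mean of 2.09 and an adjusted p of 0.0427 (limma), and that setting called 94 probes in all.

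Between the caruncles SCNT animals were set against CJ animals, which had no labelled pregnancy. IFNT2 and PAG9 were higher in SCNT and passed the test, PAG2 was higher by a like amount and did not pass, and PRP1 did not differ beyond its error. The mean ratio of IFNT2 was 0.80 in SCNT animal 1, 0.01 in animal 2, 0.16 in animal 3, 2.17 in animal 4 and 0.14 in animal 5. That of PAG2 was 0.54, -0.21, 0.21, 2.31 and 0.15 in animals 1 to 5. SCNT animal 4 stood far above the other animals in both, on each of its arrays (2.30 and 2.05 for IFNT2, 2.57 and 2.05 for PAG2), and animal 1 came next. The SCNT minus CJ difference was 0.66 ± 0.22 for IFNT2 (SE, 1.58-fold, adjusted p = 0.0382, limma, 9 of 10 arrays higher) and 0.60 ± 0.25 for PAG2 (SE, 1.52-fold, adjusted p = 0.093, limma, 7 of 10 arrays higher).

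PAG9 had a mean ratio above 0.5 in 3 of 5 animals, though not on every array. SCNT animal 1 gave 0.97 against CJ animal 3 and 0.33 against CJ animal 4. SCNT animal 5 gave 0.99 against CJ animal 5 and 0.27 against CJ animal 4. The mean ratio of PAG9 was 0.65, -0.02, 0.14, 1.74 and 0.63 in SCNT animals 1 to 5, and the difference was 0.63 ± 0.18 (SE, 1.55-fold, adjusted p = 0.0128, limma, 8 of 10 arrays higher). PRP1 gave -0.15, 0.05, -0.20, 0.52 and 0.02, and a difference of 0.05 ± 0.14 (SE, adjusted p = 0.896, limma, 95% interval -0.25 to 0.35). For PRP1 the arrays of SCNT animal 4 disagreed, with 1.45 against CJ animal 5 and -0.42 against CJ animal 1. The spots of the latter array disagreed too, at -1.01 and 0.17. Of the 4 genes 2 were called, both higher, where 21.7% of all probes were called, 10.4% higher and 11.3% lower. At an unadjusted p under 0.05 there were 3 of the 4, against 31.6% of all probes.

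The call of IFNT2 rests on few animals. The calls of IFNT2 and PAG9 come from a fit on arrays, with a correlation of 0.12 for those that share an animal. SDs over the 5 SCNT animals were 0.90 for IFNT2 and 0.69 for PAG9, and a test on means of animals was not run. Without SCNT animal 4 the difference was 0.27 (adjusted p = 0.24, limma) for IFNT2, 0.19 (adjusted p = 0.559, limma) for PAG2 and 0.36 (adjusted p = 0.045, limma) for PAG9. PAG9 lost its call without CJ animal 1 (0.64, adjusted p = 0.052, limma) and without CJ animal 5 (0.38, adjusted p = 0.0596, limma). IFNT2 lost it in 7 of 14 fits that each left out 1 animal. Beside SCNT animal 4 these were SCNT animal 1 (0.61), IAJ animal 3 (0.66) and CJ animals 1, 3, 4 and 5 (0.56, 0.73, 0.68 and 0.52), with adjusted p of 0.0612 to 0.138 from limma. Without IAJ animal 3 PAG9 kept its call (0.63, adjusted p = 0.0234, limma). PAG2 then had an adjusted p of 0.0956 and PRP1 of 0.91 (limma). On the solved scale of CJ animals, IFNT2 lay at -0.04 to 2.25 in SCNT animals (median 0.22) and at -0.11 to 0.21 in CJ animals. PAG9 lay at -0.08 to 1.71 in SCNT animals (median 0.59) and at -0.28 to 0.21 in CJ animals. In both genes SCNT animal 2 lay within the CJ range, and for IFNT2 animal 5 as well, so the groups overlapped.

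AI animals of the same area and the same CJ controls showed no such raised animal. PAG2 had mean ratios of -0.05, 0.11, 0.43 and 0.17 in IAJ animals 1 to 4, IFNT2 of -0.55, 0.15, 0.05 and 0.27, PAG9 of 0.01, 0.27, 0.03 and 0.13, and PRP1 of -0.04, 0.13, -0.04 and -0.11. The 0.43 of PAG2 in IAJ animal 3 came from 1 of its 4 arrays, at 1.45 against CJ animal 5, and the others gave 0.02 to 0.17. The -0.55 of IFNT2 in IAJ animal 1 came from 1 of 2 arrays, at -1.08. The AI minus CJ difference was 0.20 ± 0.26 for PAG2, -0.01 ± 0.23 for IFNT2, 0.10 ± 0.18 for PAG9 and -0.02 ± 0.15 for PRP1 (SE). Adjusted p-values from limma were 0.795, 0.997, 0.882 and 0.987 in the same order. Of the 4 genes 0 were called and 0 had an unadjusted p under 0.05 (24.9% of all probes had one), where 15% of all probes were called, 6.92% higher and 8.08% lower.

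SCNT and AI met in this area only through CJ. The SCNT minus AI difference was 0.67 ± 0.29 for IFNT2 (SE, adjusted p = 0.588, limma), 0.53 ± 0.23 for PAG9 (SE, adjusted p = 0.589, limma), 0.40 ± 0.32 for PAG2 (SE, adjusted p = 0.92, limma) and 0.07 ± 0.19 for PRP1 (SE, adjusted p = 0.995, limma). Of the 4 genes 0 were called, against 0.282% of all probes (0.253% higher and 0.0289% lower), and 2 (IFNT2 and PAG9) had an unadjusted p under 0.05, as had 7.65% of all probes. Without IAJ animal 3 the differences were 0.70 for IFNT2, 0.48 for PAG9, 0.53 for PAG2 and 0.042 for PRP1, and 0 of the 4 were called. That SCNT passed against CJ and AI did not is therefore not shown to be a difference between SCNT and AI. By the median of solved levels the order was SCNT, AI, CJ for IFNT2 (0.22, 0.05 and -0.05), PAG2 (0.19, 0.14 and 0.03), PAG9 (0.59, 0.10 and -0.04) and PRP1 (0.05, 0.03 and -0.11). Neighbours in that order overlapped in every gene.

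**Figure D3:**
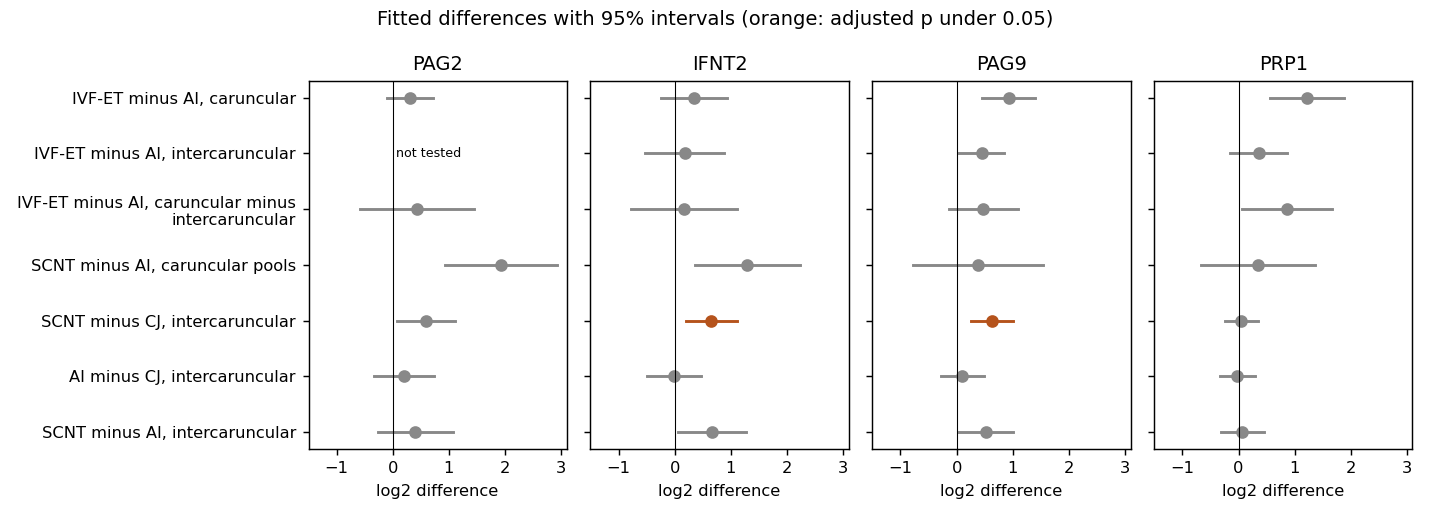
Fitted log2 difference of each conceptus gene (x axis) with its 95% interval in the 7 comparisons (y axis); orange marks an adjusted p under 0.05 from limma. The called differences are IFNT2 (0.66) and PAG9 (0.63) in SCNT minus CJ.

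In the IVF-ET and SCNT arrays the ratios of these genes varied more between animals than those of most probes. The SDs are of ratios, so they also hold differences between the animals met. Over the 5 SCNT animals against CJ the SD of PAG2 was 0.99, and 0.152% of probes had a larger one. The SD was 0.90 for IFNT2 (0.253% of probes larger), 0.69 for PAG9 (0.803%) and 0.28 for PRP1 (18.3%), and the median over all probes was 0.184. In the caruncular IVF-ET loop the SDs were 0.63 to 0.96, with 0.369% to 1.16% of probes larger and a median over all probes of 0.122. Between the caruncles of that loop IFNT2 had 1.12, PRP1 0.68 and PAG9 0.52 (0.189%, 1.44% and 3.88% of probes larger). Over the 4 IAJ animals the SDs were 0.10 to 0.36, and 15.2% to 67.5% of probes had larger ones. There PAG9 and PRP1, at 0.12 and 0.10, lay below the median over all probes of 0.154.

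Taken over all comparisons, the genes fell into pairs by the animals in which they were high, though not within each comparison. Each IVF-ET animal in each area, each pool pair, and each SCNT and AI animal against CJ gave 1 mean, 21 in all, and 19 of them had PAG2. PAG2 and IFNT2 correlated with Pearson r of 0.904 and Spearman rho of 0.939 (n = 19), and PAG9 and PRP1 with 0.766 and 0.729 (n = 21). The other pairs had r of 0.226 to 0.493. These points share animals between areas, control animals and arrays, and a few high animals weigh heavily, so the values describe these arrays alone. SCNT pool 1, SCNT animal 4 and IVF-ET animal 1 were high in PAG2, IFNT2 and PAG9. PRP1 was high too in SCNT pool 1 (1.25) and in IVF-ET animal 1 in caruncular tissue (1.25). Between the caruncles IVF-ET animal 1 had only 0.50 for PAG9 and 0.48 for PRP1. IVF-ET animal 4 in caruncular tissue was high in PAG9 and PRP1 (1.91 and 2.01) and below 0 in PAG2 and IFNT2 (-0.33 and -0.40). In SCNT animals 1, 4 and 5 against CJ, PAG9 was at 0.65, 1.74 and 0.63, whereas PRP1 was at -0.15, 0.52 and 0.02.

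**Figure D4:**
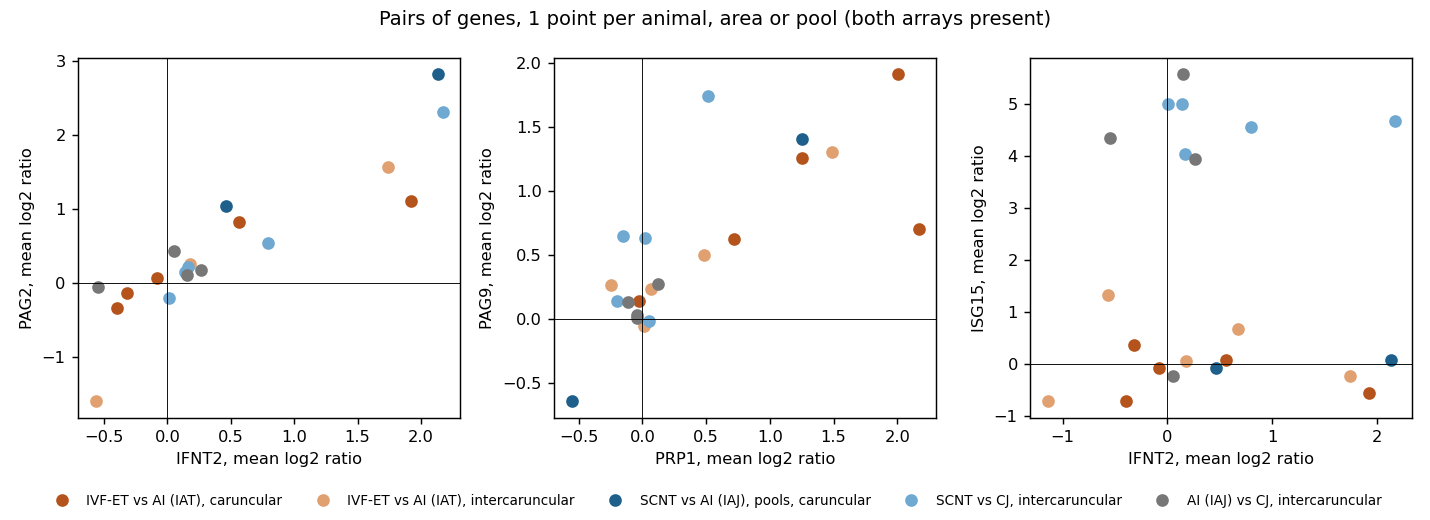
Mean log2 ratio of PAG2 against IFNT2, of PAG9 against PRP1 and of ISG15 against IFNT2, with 1 point per animal and area or pool pair, coloured by comparison. The first and second pairs rise together (r of 0.904 and 0.766), while ISG15 lies between 3.93 and 5.56 in all SCNT and 3 AI animals, also in those with IFNT2 near 0.

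Among about 4770 probes with 1 symbol, a value in each comparison and at least the median spread, those most like PAG2 over these means were TKDP4 (r = 0.912), IFNT2, LOC404105 (0.902), HAND1 (0.884) and TKDP1 (0.868). Those most like IFNT2 were LOC404105 (0.910), TKDP4 (0.864), TKDP1 (0.821), HAND1 (0.795) and 1 probe of PAG17 (0.771). TKDP1 and TKDP4 encode trophoblast Kunitz domain proteins, protease inhibitor-like secretions of the ruminant trophoblast, and HAND1 is a transcription factor of trophoblast and heart. For PAG9 they were PAG7 (0.933), PAG17 (0.877 and 0.820 on separate probes), PAG6 (0.868) and PAG19 (0.859). For PRP1 they were another probe of PAG17 (0.884), CSH2 (0.798), PAG9, PAG7 (0.763) and SRGN (0.755). CSH2 encodes placental lactogen, a hormone of the prolactin family. PAG7 was found through the second of its 2 probes, and the first correlated with PAG9 at only 0.715. In SCNT animal 4 the 3 probes of PAG17 gave 1.02, 1.027 and 3.15, so probes that share a symbol differed.

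The other conceptus genes were read from a list of 49, of which 34 were measured. In SCNT minus CJ, 5 of 34 were higher and 0 lower, where 10.4% of all probes were called higher, so the count of the list is near that share. The 5 were PAG19 (0.98 ± 0.23, adjusted p = 0.00389), TKDP1 (0.88 ± 0.23, adjusted p = 0.00767), PRP4 (0.77 ± 0.18, adjusted p = 0.00302), TKDP4 (0.62 ± 0.16, adjusted p = 0.00571) and HAND1 (0.39 ± 0.11, adjusted p = 0.0158; SE, limma). The median of the list was 0.06, close to the 0.01 of all probes. Without SCNT animal 4, an alternative added after the data were seen, 3 of 34 were called (PAG19 0.56, PRP4 0.46 and TKDP1 0.73), and TKDP4 (0.43, adjusted p = 0.0511, limma) and HAND1 (0.21, adjusted p = 0.0917, limma) were not. The count was again 5 without IAJ animal 3. The share of 10.4% is from the fit with all animals, which called 2994 probes in either direction. Fits that each left out 1 animal called 2043 to 3109. In AI minus CJ 1 of 34 was higher, GATA2 (0.33 ± 0.10, adjusted p = 0.0359, limma), a transcription factor that is not specific to the trophoblast, where 6.92% of all probes were called higher. GATA2 was highest in IAJ animal 3 (0.61), and without that animal, likewise added later, it was not called (0.18, adjusted p = 0.323, limma), while PTI was (0.75, adjusted p = 0.0349, limma). In the other 5 comparisons 0 of 34 were called by limma, where 0% to 0.282% of all probes were called.

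These genes were high in the same animals. In SCNT animal 4 the mean ratio was 2.61 for PAG19, 2.07 for PRP4, 1.48 for TKDP1 and 1.41 for TKDP4, and 10 of 34 genes lay above 0.5. In SCNT animal 1 TKDP1 reached 2.35, the highest of the 5, and 6 of 34 genes lay above 0.5. The other SCNT animals had 0 to 3 such genes, and the IAJ animals 1 to 3. In the caruncular pools TKDP1 gave 2.9996 and 1.48 in the first and second pair and TKDP4 2.97 and 1.00, both higher in each pair as for PAG2 and IFNT2. PAG19 gave 1.93 and -0.48 and PRP4 1.59 and -0.57, turning between the pairs as did PAG9 and PRP1. PTI, a pancreatic trypsin inhibitor on the list, gave -0.94 and -0.89 (mean -0.91 ± 0.08, adjusted p = 0.0753, limma).

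In the caruncular IVF-ET loop PAG19 gave 1.68, 2.32, 0.70, 1.69 and -0.54 in IVF-ET animals 1 to 5, close to the order of PRP1. The difference was 1.17 ± 0.37 (SE, adjusted p = 0.421, limma). PRP4 gave 1.502, 1.52, -1.19, 1.74 and -0.0025, so animal 3 went against the other high animals there. TKDP4 gave 1.01, 1.74, -0.02, -0.20 and -0.21, high in animals 1 and 2 alone, as for PAG2. In IVF-ET animal 5 0 of 34 genes lay above 0.5 in caruncular and 1 in intercaruncular tissue.

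**Figure D5:**
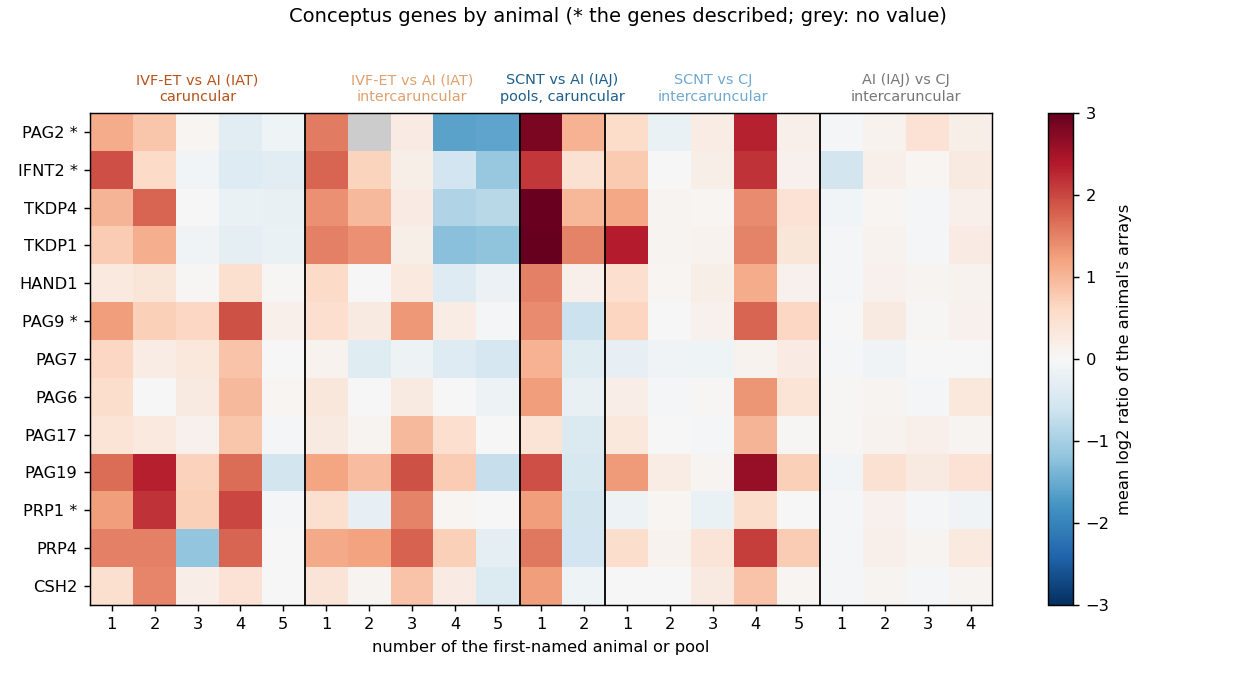
Mean log2 ratio (colour) of the 4 conceptus genes (asterisks) and 9 related genes (rows) in each animal or pool (columns), by comparison. Grey has no value. The PAG7 row shows its first probe (r = 0.715 with PAG9), not the second one (0.933). TKDP1, TKDP4 and HAND1 run with PAG2 and IFNT2, and PAG6, PAG19, PRP4 and CSH2 more with PAG9 and PRP1, while the 4 AI animals against CJ stay pale.

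Interferon tau acts through the type I interferon receptor, and its targets in the uterus include the antiviral genes ISG15 (a ubiquitin-like modifier) and MX1 (a GTPase against viruses). Of 33 interferon-stimulated genes measured out of 64 listed, 28 were higher and 0 lower in SCNT minus CJ, where 10.4% of all probes were called higher. In AI minus CJ 27 were higher and 0 lower, where 6.92% of all probes were called higher. Medians were 1.12 in SCNT and 0.85 in AI. These comparisons share their CJ animals. The dye on top was chosen because ISG15 and MX1 are then higher than in CJ. Their direction was thus set in advance, and that of genes running with them follows from it, so the direction is not a result here. ISG15 was higher by 4.65 ± 0.60 in SCNT (adjusted p = 9.79e-06, limma) and by 2.90 ± 0.62 in AI (adjusted p = 0.00252, limma), and MX1 by 4.06 ± 0.56 (adjusted p = 2.05e-05, limma) and 2.68 ± 0.58 (adjusted p = 0.00268, limma). The smallest p-values were those of TRIM25, RSAD2 and CMPK2, at 0.99, 5.44 and 2.17 in SCNT and 0.64, 3.48 and 1.35 in AI, with IFIT5 at 1.36 in AI. The AI values include IAJ animal 3. That animal was singled out by low values of these same genes. Their larger differences and smaller p-values without it were thus set in advance and are no test. Without it the AI minus CJ difference was 4.62 ± 0.39 for ISG15 (adjusted p = 3.99e-07, limma), 4.44 ± 0.24 for MX1 (adjusted p = 2.43e-09, limma), 5.56 for RSAD2, 2.17 for CMPK2, 2.17 for IFIT5 and 0.87 for TRIM25, and 28 of 33 genes were higher with a median of 1.38. RSAD2 encodes viperin, an antiviral enzyme. Of 9 measured genes of the receptor and its signalling 6 were higher in SCNT and 5 in AI, where 10.4% and 6.92% of all probes were called higher. There were 4 in SCNT without SCNT animal 4, and 6 in AI without IAJ animal 3. The shares given are from fits with all animals, which called 2994 and 2074 probes in either direction. Fits that each left out 1 animal called 2043 to 3109 in SCNT minus CJ and 1312 to 2343 in AI minus CJ. USP18, a brake on this pathway, was at 1.83 ± 0.25 in SCNT and 1.11 ± 0.26 in AI (SE, adjusted p = 1.78e-05 and 0.00439, limma). The transcription factor IRF1 was higher by 0.89 in SCNT and 0.70 in AI, and the phosphatase PTPN6 by 0.43 and 0.37. IRF7 was higher by 1.07 in SCNT, and the kinase JAK1 by 0.41 in AI. Without IAJ animal 3 the AI values were 1.82 for USP18, 0.91 for IRF1, 0.40 for PTPN6 and 0.53 for JAK1, all called. These genes belong to the pathway by whose targets the animal was singled out, so this is no separate test. The receptor genes themselves, IFNAR1 and IFNAR2, had differences of 0.14 and -0.09 in SCNT and 0.04 and 0.03 in AI.

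On the arrays with CJ, ISG15 was high also in animals whose IFNT2 lay near the CJ level. All 5 SCNT animals had solved ISG15 levels of 4.00 to 5.21 above the CJ mean, also SCNT animals 2, 3 and 5, whose IFNT2 lay at -0.04, 0.22 and 0.08. IAJ animals 1, 2 and 4 had 4.31, 5.53 and 3.80 with IFNT2 at -0.50, 0.07 and 0.35. IAJ animal 3 had -0.13 for ISG15 and -0.30 for MX1, within the CJ range of both. The median ratio of its 33 interferon-stimulated genes, -0.09, stands against 1.16 to 2.08 in the other IAJ animals, and the cause was not tested. Without IAJ animal 3 the AI minus CJ differences of the 4 genes were -0.04 to 0.15, and 0 were called.

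In the IVF-ET loops 0.0217% of all probes were called in caruncular and 0.00724% in intercaruncular tissue. Of 33 interferon-stimulated genes 0 were called in either area. Between the caruncles they still differed widely between animals: solved ISG15 levels ran from -1.48 to 3.72 in IVF-ET animals and from -2.73 to 4.24 in IAT animals. The highest were IVF-ET animal 4 (3.72) and IAT animal 4 (4.24), with IFNT2 at 0.22 and 0.80, and the lowest was IAT animal 3 (-2.73), with IFNT2 at -1.41. Among the 5 IAT animals IFNT2 and ISG15 had the same order: animal 3 (-1.41 and -2.73), animal 1 (-0.56 and -1.58), animal 7 (0.39 and -0.46), animal 2 (0.78 and 0.53) and animal 4 (0.80 and 4.24), and MX1 followed it too. Among the IVF-ET animals they did not: animal 1, the highest in IFNT2 at 1.66, had ISG15 at -1.24, and animal 5, the lowest in IFNT2 at -1.45, had 0.05. These levels come from 1 solution of the loop, so errors of neighbouring animals are shared. In caruncular tissue ISG15 ran only from -0.76 to 0.48 in IVF-ET and from -0.21 to 0.21 in IAT animals. In the caruncular pools ISG15 differed by -0.0024 ± 0.09 (SE, adjusted p = 0.995, limma), with values of 0.07 and -0.08 in the pairs whose IFNT2 gave 2.13 and 0.46.

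For the prolactin and growth hormone family, to which PRP1 is related by sequence, 3 of 6 listed genes of receptors and their signalling were measured. Among those measured only PRLR is a receptor. PRLR, the prolactin receptor, was lower in both comparisons with CJ, at -0.71 ± 0.14 in SCNT (adjusted p = 0.00087, limma) and -0.63 ± 0.15 in AI (adjusted p = 0.00454, limma). The AI value without IAJ animal 3 was -0.53 (adjusted p = 0.0416, limma), and SOCS2, an inhibitor of growth hormone signalling, was then called too (-0.80, adjusted p = 0.0361, limma). PRLR was not called in the other 5 comparisons. Over all probes 10.4% were called higher and 11.3% lower in SCNT minus CJ. In AI minus CJ these shares were 6.92% and 8.08%, with all animals. Of 5 measured aspartic proteases and secreted protease inhibitors out of 11 listed, TIMP1, an inhibitor of matrix metalloproteinases, fell in SCNT minus CJ (-1.65 ± 0.15, adjusted p = 1.27e-07, limma) and AI minus CJ (-1.10 ± 0.15, adjusted p = 4.26e-05, limma). TIMP2, a related inhibitor, rose in SCNT minus CJ (1.68 ± 0.28, adjusted p = 0.000137, limma) and was at 0.65 ± 0.29 in AI minus CJ (adjusted p = 0.153, limma). The AI values without IAJ animal 3 were -1.12 for TIMP1 (adjusted p = 0.000298, limma) and 1.39 for TIMP2 (adjusted p = 0.000157, limma). The aspartic proteases CTSD and PGA5, relatives of the PAGs, gave -0.30 ± 0.22 and 0.07 ± 0.09 in SCNT minus CJ and -0.09 ± 0.22 and 0.08 ± 0.09 in AI minus CJ. Neither was called in any of the 7 comparisons with all animals, and CTSD was called in AI minus CJ without IAJ animal 3 (-0.62, adjusted p = 0.039, limma).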

How the data were processed

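What the authors deposited are log2 ratios of Cy5 and Cy3, 1 value for each spot of an array. The base was checked on 331 values below -4, of which 100% matched the log2 of a ratio rounded to 4 decimals (tolerance 6e-05). How background was corrected and arrays were normalized is not stated in the sources, and the ratios were used as deposited. Per the labels' protocols, cDNA was made with oligo-dT primers and the dyes were coupled afterwards. Intensities were not used here, so signal over background is unknown, and the number of arrays limits the precision.

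Spots were averaged, and ratios were turned so that the group named first is on top. Probes with values on at least 80% of arrays entered each fit (13824, or 13816 between the caruncles of the IVF-ET loop). The program was limma 3.58.1 under R 4.3.3. Its generalised least-squares fits held a term for the dye and a common correlation of arrays that share an animal (0.13, 0, 0.01 and 0.12 for the caruncular loop, the intercaruncular loop, both loops and the arrays with CJ). Pool pairs were averaged over dyes and tested against 0. P-values were adjusted over all probes of a fit (Benjamini-Hochberg), with a threshold of 0.05. SE and 95% intervals are those of the moderated fit.

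The genes and lists were chosen with earlier results of these data known. Named by rule were the 5 probes most like each conceptus gene, per list at most 4 genes with the smallest p past the threshold, and ISG15 and MX1. HAND1 among the called genes, PTI, SOCS2, IFNAR1, IFNAR2, CTSD, PGA5 and the uncalled values of PAG19, PRP4, TKDP1 and TKDP4 were picked after their values were seen. A gene with several probes was led by the probe that lacked the fewest values. Alternatives were each spot alone, arrays scaled to a common spread, a robust prior, no dye term, a correlation of 0, other limits on missing values, linked areas, own arrays alone, and leaving out each animal or pool pair. Leaving out IAJ animal 3 or SCNT animal 4 for the lists was added after the data were seen. The fits were tested on simulated data.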

Additional observations from a re-analysis of the deposited data

Results flagged for a closer look

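MX1 in IAJ animal 3 stood far from the other AI animals set against CJ: its mean log2 ratio was -0.6322, while IAJ animals 1, 2 and 4 lay between 4.42 and 4.64. It was found by the gap to its nearest neighbour, relative to the range of the group. Of 40 sets of 4 or 5 animals looked at for the 4 conceptus genes, ISG15 and MX1, 1 stood out in this way, and chance alone picks about 1 in 20. PAG2, IFNT2, PAG9 and PRP1 had mean ratios of 0.43, 0.05, 0.03 and -0.04 in this animal. The cause was not tested.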

How the results depend on the processing

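Apart from leaving out animals, 188 refits of the 4 conceptus genes kept direction and side of the threshold, and 3 did not. Some of these refits could hardly change. A correlation of 0 repeats the main fit of the intercaruncular loop, and asking for values on all arrays leaves the differences of the probes kept as they were. Outside the pools no refit used means of animals, so the count does not show that the calls are robust to that choice. IFNT2 in SCNT minus CJ lost its call with arrays scaled to a common spread (0.49, adjusted p = 0.0689, limma) and with its own 10 arrays alone (0.66, adjusted p = 0.0607, limma). PAG2 in the pools gained one with the first spot alone (2.09, adjusted p = 0.0427, limma). That setting called 94 probes in the pools, where the mean of both spots called 0 and the second spot 2. Over all probes IVF-ET minus AI called 3 in caruncular tissue and 0 to 3 under the alternatives, and 1 in intercaruncular tissue and 0 to 2 under them, and the area difference 1 and 0 to 1. Leaving out 1 animal at a time, SCNT minus AI called 8 to 53 probes, against 39 with all animals, and AI minus CJ 1312 to 2343, against 2074. In the same fits SCNT minus CJ ran from 0.27 to 0.81 for IFNT2, 0.36 to 0.79 for PAG9, 0.19 to 0.79 for PAG2 (called once, without SCNT animal 2, adjusted p = 0.0443, limma) and -0.12 to 0.19 for PRP1. AI minus CJ ran from -0.088 to 0.14 for IFNT2 and -0.045 to 0.0060 for PRP1, and SCNT minus AI from -0.015 to 0.59 for PAG2 and -0.073 to 0.21 for PRP1. IVF-ET minus AI for IFNT2 ran from -0.047 to 0.52 in caruncular and -0.21 to 0.57 in intercaruncular tissue, and its difference between the areas from -0.072 to 0.42. The pool pairs alone gave -0.64 and 1.41 for PAG9 and -0.55 and 1.25 for PRP1. Without SCNT animal 4 the other conceptus genes called higher in SCNT minus CJ were 3, against 5. With all animals 10.4% of all probes were called higher there. Without IAJ animal 3 the protease list in AI minus CJ had 1 gene higher and 2 lower, against 0 and 1. The list of prolactin family receptors and signalling then had 2 lower, against 1. With all animals 6.92% of all probes were called higher and 8.08% lower in AI minus CJ. Causes were not tested. No paired analysis was possible because replicate numbers do not pair animals of the groups compared within an area. Areas of an animal do share numbers, and linking them left the area differences at 0.43 for PAG2, 0.16 for IFNT2, 0.48 for PAG9 and 0.86 for PRP1 (adjusted p of 0.606 to 0.947, limma). Without intensities, what signal over background limits is unknown.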
